A study of Mus musculus with 34 samples.

Results

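Gene ends in LPS-activated mouse B cells were sorted by whether they carried a peak of H3K4me3, trimethylation of lysine 4 on histone H3, and the classes were set beside the RNA level of the same genes. The members were all 23812 gene rows of the deposited RNA table, so nothing was selected on RNA. A row had a peak if a called H3K4me3 region of activated cells lay within 1 kb of either end of its locus, which held for 12108 rows (50.8%) and failed for 11704. The rows with a peak were divided by the width of the widest such region into 1570 rows at 500 to under 1000 bp, 5351 at 1000 to under 2000 bp, 3435 at 2000 to under 3000 bp and 1752 at 3000 bp or more. The cells were CD43-negative splenic B cells of mice whose strain the series design text spells C56BL/6J, aged 6-8 weeks. Activated cells (aB) had been cultured for 3 days with lipopolysaccharide (LPS) at 10 µg/ml, a bacterial product that drives B cells to divide and to become antibody-secreting cells. Resting cells (rB) were the control. RNA-seq came from 2 activated and 2 resting samples, out of 34 samples in the series. The labels do not say whether the samples of a group came from separate animals or cultures, so a p-value measures only the spread between these samples. H3K4me3 was used from activated cells only, as a peak list named under the first of 2 replicates and carrying no score, so that peaks have no replicate check.

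H3K4me3 is laid down by methyltransferases of the SET1 and MLL families, which are drawn to promoters by unmethylated CG-rich DNA and by engaged RNA polymerase. It marks the nucleosomes that flank transcription start sites, and broad domains of it are known at genes of cell identity. The mark is also found at silent CG-rich promoters, often of developmental regulators, where it can lie together with the Polycomb mark H3K27me3. H3K27ac, acetylation of lysine 27, is found at active promoters and enhancers. FAIRE-seq recovers nucleosome-poor DNA, and STARR-seq finds DNA fragments with enhancer activity in a reporter plasmid.

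RNA levels were read as FPKM (fragments mapped, scaled to transcript length and to library size), and a row is called expressed below at a mean of at least 1 FPKM over the 2 activated samples and silent at a mean under 0.1. FPKM summed to 244602 and 287884 in the resting samples and to 285068 and 285129 in the activated samples. Read totals are not in the table, but the smallest steps between low values put activated replicate 2 at about 1.60 times the depth of activated replicate 1. The cell label held up on its markers: all 6 B cell markers examined (among them Ms4a1, Cd79a, Cd79b, Pax5 and Cd22) were expressed in all 4 samples, and all 6 lay in the class of 3000 bp or more. The resting samples also held RNA of marker genes of other cells. The 11 macrophage markers found summed to 586 and 987 FPKM at rest and 4.91 and 11.97 after activation, and 6 erythroid markers summed to 1385 and 9458 at rest and 14.6 and 5.35 after activation. C1qa and C1qb, complement genes of macrophages, had a listed value of 0 in each activated sample. In bulk RNA, fewer cells of a type and less RNA per cell cannot be told apart.

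Promoter sequences of 7 genes show what the classes looked like at the DNA level, from the widest peak to genes without one. Each line gives the 250 bases before the gene's start, 5′ to 3′ on the gene's strand, from RefSeq on GRCm38.p6, with CG dinucleotides in capitals. Peaks and gene loci below are on mm9, and these windows were joined to them by gene symbol only. Pax5, the B cell identity factor, had the widest peak (window chr4:44710695-44710944, minus strand, 19 CG). Rplp0, a ribosomal stalk protein, had the highest RNA of the 1000 to under 2000 bp class (chr5:115559217-115559466, plus strand, 19 CG). Ptpn6, the phosphatase SHP-1 that dampens B cell receptor signals, was the second highest of the 500 to under 1000 bp class (chr6:124738710-124738959, minus strand, 7 CG). Eef2, translation elongation factor 2, was expressed at more than 1000 FPKM without a peak (chr10:81176381-81176630, plus strand, 23 CG). Dpf3, a subunit of BAF chromatin remodelling complexes known from muscle and neural cells, had a wide peak and was silent (chr12:83487737-83487986, minus strand, 16 CG). Hebp1, a heme-binding protein, had a peak and RNA at rest only (chr6:135168216-135168465, minus strand, 10 CG). C1qc, a macrophage complement gene, had no peak and RNA at rest only (chr4:136892915-136893164, minus strand, 2 CG).
Pax5: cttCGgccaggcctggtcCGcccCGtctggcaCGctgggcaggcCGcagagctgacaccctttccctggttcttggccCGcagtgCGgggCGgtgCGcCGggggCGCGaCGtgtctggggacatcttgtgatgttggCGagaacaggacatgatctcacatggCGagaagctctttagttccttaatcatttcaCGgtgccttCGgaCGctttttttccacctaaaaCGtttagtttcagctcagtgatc
Rplp0: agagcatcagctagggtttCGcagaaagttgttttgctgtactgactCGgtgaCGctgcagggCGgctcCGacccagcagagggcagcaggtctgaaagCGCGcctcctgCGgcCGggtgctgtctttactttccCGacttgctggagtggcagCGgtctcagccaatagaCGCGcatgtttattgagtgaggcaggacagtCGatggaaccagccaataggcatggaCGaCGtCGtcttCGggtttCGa
Ptpn6: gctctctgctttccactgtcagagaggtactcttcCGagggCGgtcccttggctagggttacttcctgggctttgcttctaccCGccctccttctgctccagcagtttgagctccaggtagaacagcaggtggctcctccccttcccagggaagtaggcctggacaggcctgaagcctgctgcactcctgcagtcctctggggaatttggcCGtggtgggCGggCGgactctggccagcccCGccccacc
Eef2: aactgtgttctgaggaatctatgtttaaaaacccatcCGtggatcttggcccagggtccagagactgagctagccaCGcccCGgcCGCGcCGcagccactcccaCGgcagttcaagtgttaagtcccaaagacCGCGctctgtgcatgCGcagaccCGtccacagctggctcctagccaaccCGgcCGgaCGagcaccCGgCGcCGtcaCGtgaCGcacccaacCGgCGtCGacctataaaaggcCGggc
Dpf3: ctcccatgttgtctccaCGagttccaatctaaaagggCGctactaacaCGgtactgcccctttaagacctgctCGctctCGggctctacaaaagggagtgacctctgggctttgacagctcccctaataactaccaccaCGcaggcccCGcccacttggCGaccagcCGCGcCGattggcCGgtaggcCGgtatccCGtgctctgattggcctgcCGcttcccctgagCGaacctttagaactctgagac
Hebp1: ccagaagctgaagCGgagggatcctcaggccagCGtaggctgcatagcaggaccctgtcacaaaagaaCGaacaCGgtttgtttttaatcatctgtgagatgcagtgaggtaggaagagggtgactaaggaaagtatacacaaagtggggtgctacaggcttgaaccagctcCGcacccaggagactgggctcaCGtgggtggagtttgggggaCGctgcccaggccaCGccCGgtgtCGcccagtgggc
C1qc: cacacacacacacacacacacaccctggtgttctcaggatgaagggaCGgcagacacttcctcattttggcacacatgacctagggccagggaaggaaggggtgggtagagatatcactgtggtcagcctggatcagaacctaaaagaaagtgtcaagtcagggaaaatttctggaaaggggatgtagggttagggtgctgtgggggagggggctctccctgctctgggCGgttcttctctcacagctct
The CG-rich windows of Eef2, expressed without a peak, and of Dpf3, silent with one, stand apart from the CG-poor window of C1qc.

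Genes with an H3K4me3 peak at an end were mostly expressed and genes without one were mostly silent, and the RNA level rose with peak width. At least 1 FPKM was reached by 77.9%, 78.7%, 79.0% and 77.8% of the rows with a peak of 1000 to under 2000 bp (resting replicates 1 and 2, then activated replicates 1 and 2). Of the 11704 rows without a peak 1225, 1287, 962 and 910 did, or 8.2% and 7.8% in the activated samples. Peaks of 500 to under 1000 bp were closer to no peak than to wide peaks, with 29.7%, 30.5%, 26.9% and 24.5%. At 2000 to under 3000 bp the shares were 88.1%, 88.4%, 89.9% and 89.3%, and at 3000 bp or more they were 90.4%, 90.5%, 91.8% and 91.3%. The median RNA level in activated cells was 0 without a peak, 0.128 ± 0.0264 FPKM at 500 to under 1000 bp, 6.18 ± 0.000926 at 1000 to under 2000 bp, 12.7 ± 0.671 at 2000 to under 3000 bp and 20.7 ± 0.317 at 3000 bp or more (SD of the samples' medians, n = 2). At rest the same classes had medians of 0, 0.175 ± 0.0154, 6.11 ± 0.186, 11.4 ± 0.542 and 20.03 ± 0.665 FPKM (n = 2). No 2 of the 4 upper classes overlapped in their sample medians, whereas within a class the activated and resting samples lay close together. Classes defined on activated chromatin therefore ordered the resting RNA in the same way.

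**Figure D1:**
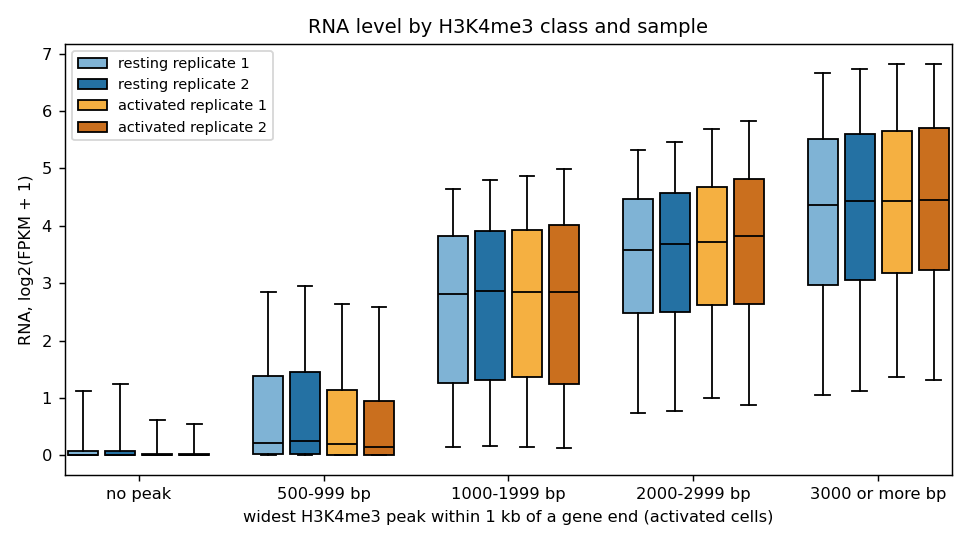
RNA level on the log2(FPKM + 1) scale (vertical axis) for gene rows grouped by H3K4me3 class (horizontal axis), with 1 box per RNA sample. The line in each box is the median, the box spans the quartiles and the whiskers the tenth to ninetieth percentiles. The medians climb from 0 FPKM without a peak to 20.7 FPKM in activated cells at 3000 bp or more, and the 4 samples of a class lie together.

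The gap between rows with and without a peak was present in each sample. The share of rows at 1 FPKM or more was higher with a peak by 65.9 and 65.9 percentage points in the resting samples and by 69.0 and 68.3 in the activated samples. Both activated gaps exceeded both resting ones, by 2.75 points on average. With 2 samples against 2 an exact permutation test (two-sided) cannot go below p = 0.333, which it gave, so no call can be made. The activated share with a peak was 76.7% ± 0.759 and the resting share 76.6% ± 0.368. Without a peak the shares were 8.00% ± 0.314 after activation and 10.7% ± 0.375 at rest (SD, n = 2 each), so that the difference in the gap lay on the side of the genes without a peak. Across the 12108 rows with a peak, Spearman's rho between peak width and the group mean of RNA was 0.515 for activated and 0.485 for resting cells. This describes genes that share libraries and, in part, peaks: 1635 of the 10361 peaks that were the widest of some row served several rows.

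Most of the change with width fell between 500 and 1500 bp. Of the 417 rows whose widest peak was exactly 500 bp, the narrowest width in the list, 10.8% were expressed, against 17.8% of 398 rows above 500 and under 750 bp, 38.3% of 755 at 750 to under 1000 bp and 63.0% of 1050 at 1000 to under 1250 bp. The share then passed 75.8% at 1250 to under 1500 bp and 87.9% at 1750 to under 2000 bp, and beyond 2000 bp it stayed between 89.0% and 95.4%. The median level kept rising over that range, from 11.8 FPKM at 2000 to under 2500 bp to 47.2 FPKM for the 65 rows at 7000 bp or more. Just below and above the class limits the shares were 46.3% at 900 to under 1000 bp and 60.1% at 1000 to under 1100 bp, 88.1% at 1900 to under 2000 bp and 89.1% at 2000 to under 2100 bp, and 90.6% at 2900 to under 3000 bp and 96.4% at 3000 to under 3100 bp. The limit at 1000 bp thus cuts through the steep part of the relation, and the limit at 2000 bp through a flat part.

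**Figure D2:**
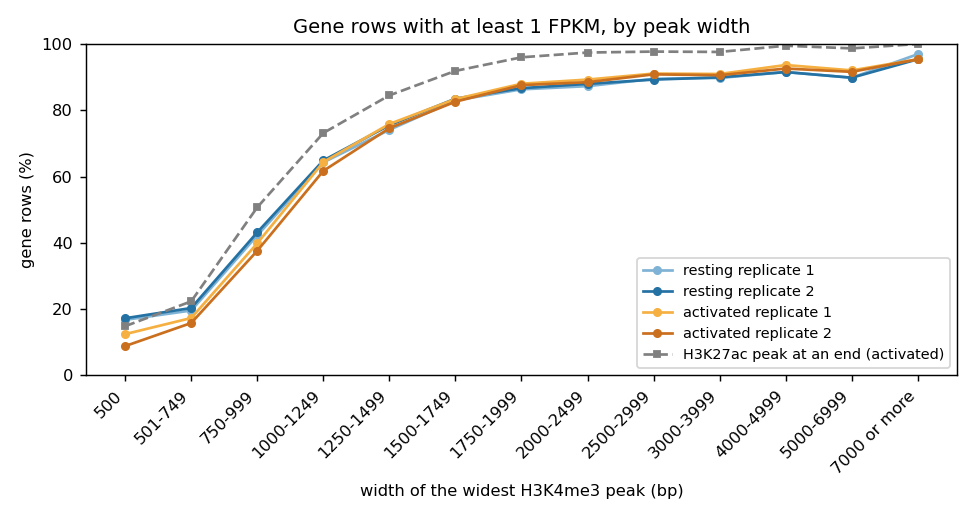
Percent of gene rows at 1 FPKM or more in each of the 4 RNA samples, and percent with an H3K27ac peak of activated cells within 1 kb of an end (dashed), by width of the widest H3K4me3 peak in bp; bins are unequal. The share of activated rows climbs from 12.5% and 8.87% at exactly 500 bp to 88.0% and 87.6% at 1750 to under 2000 bp and is nearly level beyond.

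The expressed share fell with distance from the peak. When a peak covered an end, 80.7% of 11159 rows were expressed. With the nearest peak 1-250 bp away the share was 37.1% of 490 rows, at above 250 and up to 500 bp 27.1% of 192 and at above 500 and up to 1000 bp 23.6% of 267. Just inside the 1 kb limit, above 800 bp, 26.97% of 89 rows were expressed, and just outside it, up to 1200 bp, 17.3% of 75. More than 50 kb from any peak the share was 2.31% of 6285 rows. The choice of 1 kb rather than another distance therefore concerns few rows, since 11159 of the 12108 rows with a peak had an end under it.

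A peak went with RNA when it lay at the start of the gene. The RNA table gives no strand, so strand was taken from RefSeq by symbol for 16197 rows. A peak at the start only was found in 7885 rows, of which 80.7% were expressed. Both ends had one in 790 rows, with 79.0% expressed and a median locus length of 4775 bp. A peak at the other end only was found in 219 rows, of which 18.7% were expressed, at a median of 0.0652 FPKM. For 7303 rows with no peak the share was 8.20%. Ptpn6 is a case of both: its widest peak, 932 bp, lay at the far end, 68 bp inside the locus, and a peak of 500 bp lay at the start.

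Read from the RNA side, the share of rows with a peak rose up to about 10 FPKM and then stayed level. A peak was present at 13.1% of rows under 0.1 FPKM in activated cells, 58.2% at 0.1-1 FPKM, 78.1% at 1-2, 87.2% at 2-5 and 92.1% at 5-10 FPKM. Between 10 and 100 FPKM it was 93.3% to 93.6%, and among the 417 rows at 100 FPKM or more it was 91.1%. The width went on changing where the presence did not: 49.9% of the rows at 100 FPKM or more had a peak of at least 3000 bp, against 7.36% of all rows, and the median width rose from 1004 bp in the lowest bin to 3142.5 bp in the highest.

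**Figure D3:**
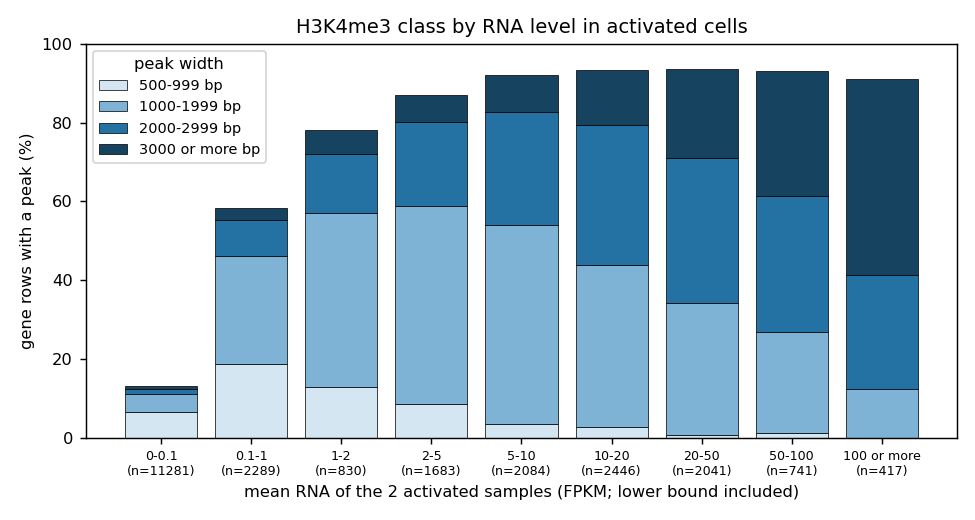
Percent of gene rows with an H3K4me3 peak at an end (vertical axis, stacked by peak width in bp) by mean RNA of the 2 activated samples in FPKM (horizontal axis, unequal bins, n = rows). The total levels off above 5 FPKM while the darkest part, peaks of 3000 bp or more, grows to 49.9% at 100 FPKM or more.

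Other chromatin measurements of activated cells, which the classes did not use, followed RNA as well as H3K4me3. Of the 9301 expressed rows with a peak, 96.7% had an H3K27ac peak within 1 kb of an end, 97.3% a FAIRE peak and 57.8% a STARR peak. Of the 1474 silent rows with a peak, 33.0% had H3K27ac, 51.9% FAIRE and 17.6% STARR. Of the 941 expressed rows without an H3K4me3 peak, 9.56% had H3K27ac, 25.3% FAIRE and 6.91% STARR. Of the 9807 silent rows without one, the shares were 1.60%, 4.97% and 1.23%. Expressed genes without H3K4me3 therefore lacked H3K27ac more often than silent genes with H3K4me3 did. In the narrowest class, 500 to under 1000 bp, H3K27ac was at 70.6% of the expressed and 12.2% of the silent rows. The lists share a build and a laboratory, and how each was called is not given in the sources used here, so a missing peak is the absence of a call and not of the mark.

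Hi-C, which records contacts between genome regions, gave another split. An anchor of a deposited contact lay within 1 kb of an end for 85.6% of expressed and 28.4% of silent rows with a peak. Without a peak the shares were 54.0% of expressed and 3.03% of silent rows. The anchors follow expression partly by construction, because the series design says that Hi-C served to link enhancers to promoters chosen as active by RNA-seq.

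Promoter CG content rose over the H3K4me3 classes up to 2000 bp. It was counted in windows of 300 bases (250 before to 50 after the start) for the 13632 rows whose unique symbol matched a single RefSeq window. The median was 4 CG dinucleotides without a peak, 16 at 500 to under 1000 bp, 21 at 1000 to under 2000 bp and 25 in both wider classes. Silent genes with a peak of 500 to under 1000 bp had a median of 18 and expressed ones 13, so within the narrowest class the silent promoters held more CG. Without a peak the order was the reverse: expressed genes had a median of 16 and silent genes 3, and at 10 FPKM or more without a peak it was 21.5, close to the 22 of all genes with a peak. The observed number of CG divided by the number that the base composition gives had a median of 0.225 without a peak and 0.790 with one. The letters TATAA were searched on the gene's strand 40 to 15 bases before the start. They were found in 8.13% of windows without a peak and 1.88% with one. Over all 13632 of these rows the share was 4.83%, and over all 32851 RefSeq windows it was 3.52%. Without a peak it was 3.55% for expressed and 8.62% for silent genes. A match to these letters is a description only.

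**Figure D4:**
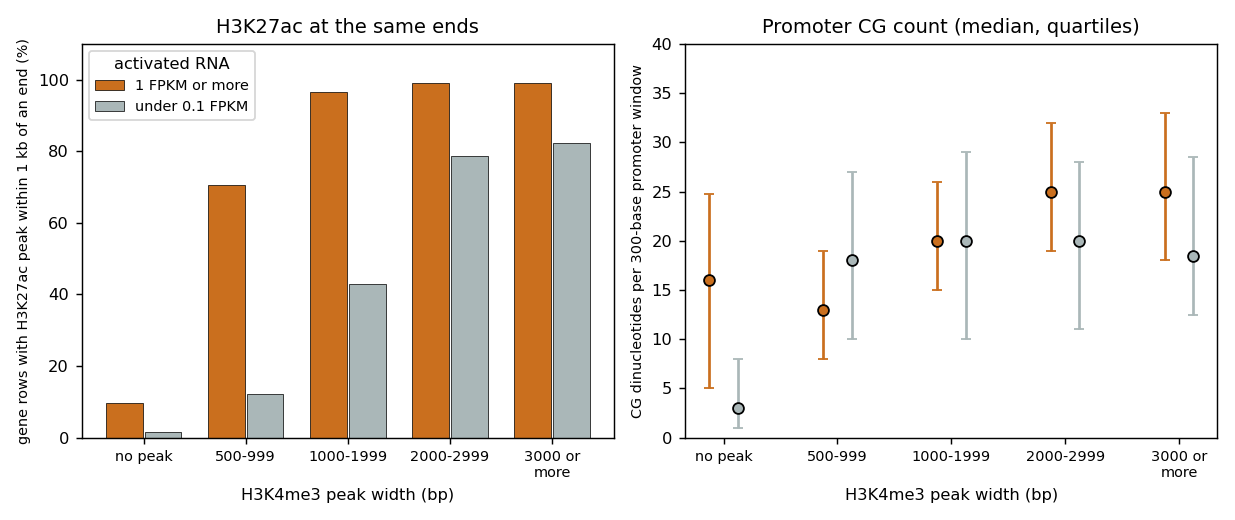
Left, percent of gene rows with an H3K27ac peak within 1 kb of an end, for rows at 1 FPKM or more and under 0.1 FPKM in activated cells, by H3K4me3 class (bp). Right, CG dinucleotides per 300-base promoter window (points, median; lines, quartiles) for the same groups. Expressed genes without a peak have little H3K27ac (9.56%) but a median of 16 CG, and silent genes with narrow peaks have 12.2% H3K27ac and a median of 18 CG.

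The widest peaks lay at Pax5 and Cd79a, genes of B cell identity, and at several other expressed genes. A peak of 15066 bp covered the start of Pax5 (chr4:44544378-44723312), and an end of the expressed row 5730488B01Rik lay within 1 kb of it too. Pax5 stood at 95.9 and 93.8 FPKM at rest and 35.4 and 34.9 FPKM after activation. The groups did not overlap, and the level fell by 1.41 on the log2(FPKM + 1) scale (SE 0.172, adjusted p = 0.000866, limma with Benjamini-Hochberg adjustment over all genes tested, here and below). Laptm5, a lysosomal membrane protein that lowers antigen receptor levels, had 11686 bp and rose from 324 and 332 to 792 and 590 FPKM (log2 change 1.06, SE 0.255, adjusted p = 0.0128). Cd79a, the signalling chain of the B cell receptor, shared a peak of 10721 bp with its neighbour Arhgef1, a signalling protein of lymphocytes. Cd79a stood at 766 and 706 FPKM at rest and 530 and 417 after activation, a log2 change of -0.64 that did not pass (SE 0.253, adjusted p = 0.0679), although its groups did not overlap. Arhgef1 fell from 121 and 127 to 49.9 and 44.6 FPKM (log2 change -1.38, SE 0.185, adjusted p = 0.00127). Eif2a, a translation initiation factor, shared a peak of 10368 bp with the expressed gene Serp1. Eif2a rose from 16.9 and 19.2 to 46.6 and 55.6 FPKM (log2 change 1.45, SE 0.175, adjusted p = 0.000828). Cnp, a phosphodiesterase, and Dnajc7, a cochaperone, shared 10426 bp and had activated means of 86.2 and 91.4 FPKM. That peak covered the start of Cnp but the far end of Dnajc7, whose start had another peak.

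A shared wide peak could join genes of very different level. The peak of 11498 bp at Shisa5, Trex1 and Atrip covered an end of all 3. By the RefSeq strand it covered the start of Trex1 only. For Shisa5 and Atrip it lay at the far end, and another peak lay at the start. Shisa5, a membrane protein linked to cell death signalling, stood at 957 and 972 FPKM at rest and 788 and 443 FPKM after activation. Trex1, an exonuclease that clears cytosolic DNA, stood at 29.7 and 42.4 and at 24.2 and 17.6 FPKM. Atrip, the partner of the ATR checkpoint kinase, had 6.46 and 5.46 and then 7.79 and 10.0 FPKM. The same width thus stood beside activated means of 616, 20.9 and 8.92 FPKM, but it was the width at the start for Trex1 alone. No strand is given for the RNA counting, so reads of overlapping neighbours cannot be told apart.

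Ribosomal proteins and translation factors were among the genes with the highest activated RNA in the 3 classes from 1000 bp up, beside genes of antigen presentation and antibody secretion. At 3000 bp or more they were Tmsb4x (an actin monomer binder), Cd74 (the MHC class II chaperone), B2m (the MHC class I light chain), Mzb1 (an ER cofactor of antibody secretion) and Eef1a1, with activated means of 2488, 2207, 1925, 1537 and 1439 FPKM. Mzb1 stood at 141 and 179 FPKM at rest and at 1536 and 1537 after activation. At 2000 to under 3000 bp they were Cd52, Rpl8, Igj, Rps20 and Rplp1, with means between 870 and 1941 FPKM; Igj, the joining chain of polymeric antibodies, stood at 35.8 and 76.6 FPKM at rest and 1173 and 1255 after activation. At 1000 to under 2000 bp Rplp0, Rps15, Atp5e, Eif3f and Nme2 had means between 226 and 778 FPKM. At 500 to under 1000 bp the highest 5 reached only 78.7 to 95.7 FPKM. Those were the mitochondrial genes Fis1, Tomm22 and Chchd10 together with Ptpn6 and Grcc10. Ptpn6 stood at 219 and 233 FPKM at rest and 102 and 75.2 after activation. Ribosomal proteins and other genes with processed copies have uncertain values.

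Mature B cell identity genes, most of which were lower after activation, had wide peaks in the activated cells. Of 20 such genes 16 lay in the class of 3000 bp or more and 2 at 2000 to under 3000 bp. Of all rows 7.36% lay in the widest class, and of rows at 100 FPKM or more in activated cells 49.9% did. Among 13 housekeeping genes 7 lay there too, so wide peaks were not particular to this list or to those below. In the comparison of activated with resting cells 54.4% of the 10863 genes tested were called at adjusted p under 0.05, 28.2% higher and 26.2% lower, with a median log2 change of 0.03. Which direction held more calls turned with the scaling: with median centring 2936 were higher and 3133 lower. Without resting replicate 1 the number called dropped from 5910 to 2964, and without resting replicate 2 to 3324. Among the 20 identity genes 15 were lower and 1, the coactivator Pou2af1, was higher, with a median log2 change of -1.22. Cr2, the complement receptor CD21, had a peak of 2283 bp and fell from 174 and 158 to 11.5 and 7.18 FPKM (log2 change -4.04, SE 0.236, adjusted p = 6.87e-05). Ebf1, a B lineage transcription factor, had 7157 bp and fell from 35.9 and 26.9 to 22.3 and 14.4 FPKM (log2 change -0.76, SE 0.246, adjusted p = 0.0369). The other 2 had no peak within 1 kb. Ciita, the activator of MHC class II genes, had 85.0 and 76.7 FPKM at rest and 26.5 and 20.4 after activation, and its nearest peak was 8005 bp away. Bach2, a repressor of plasma cell fate, had 43.2 and 37.2 and then 11.7 and 10.7 FPKM, with a peak 1848 bp away. This list and those below were drawn up with earlier results of these data known.

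Plasma cell genes, most of which rose, also had wide peaks. Of 16 genes 11 lay at 3000 bp or more and 3 at 2000 to under 3000 bp, and 13 of the 15 tested were higher and 0 lower, with a median log2 change of 3.02. Prdm1, the gene of the repressor Blimp-1 that sets plasma cell fate, had a peak of 6438 bp and rose from 1.23 and 1.26 to 61.3 and 75.8 FPKM (log2 change 4.94, SE 0.163, adjusted p = 1.58e-05). Xbp1, the factor that expands the secretory pathway, had 4355 bp and rose from 40.5 and 47.2 to 402 and 466 FPKM (log2 change 3.28, SE 0.212, adjusted p = 8.83e-05). Sdc1, the plasma cell surface protein CD138, had 2214 bp but only 3.46 and 3.76 FPKM at rest and 2.16 and 5.17 after activation, so its groups overlapped. Slamf7, a surface receptor of plasma cells, had no peak within 1 kb, and stood at 22.8 and 17.6 FPKM at rest and 29.7 and 32.4 after activation. Tnfrsf17, the receptor BCMA, had no peak and at most 0.887 FPKM in any sample.

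Cell cycle genes rose strongly with peaks of many widths. All 20 were higher after activation, with a median log2 change of 3.28, and their peaks were spread over 6 genes at 1000 to under 2000 bp, 8 at 2000 to under 3000 bp and 5 at 3000 bp or more. Ccnb1, cyclin B1, had 1984 bp and rose from 0.744 and 1.47 to 19.3 and 33.4 FPKM (log2 change 3.67, SE 0.288, adjusted p = 0.000167). Mki67, which encodes the proliferation antigen Ki-67, had 4563 bp and rose from 8.59 and 9.79 to 91.4 and 171 FPKM (log2 change 3.63, SE 0.295, adjusted p = 0.000191). Aurka, a mitotic kinase, was the exception, with 2.76 and 2.66 FPKM at rest, 28.4 and 42.6 after activation and no H3K4me3, H3K27ac or FAIRE peak within 1 kb of an end.

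Genes of the unfolded protein response and of protein secretion rose together, and 5 of them did so without a peak. All 18 were higher after activation, with a median log2 change of 1.95. Of these, 13 had peaks of at least 2000 bp and 5 had none: Hsp90b1 and Hspa5 (the ER chaperones GRP94 and BiP), Dnajb9 (a BiP cochaperone), Sec61a1 (the channel of the ER translocon) and Atf4 (the stress transcription factor). Dnajb9 had 12.4 and 12.9 FPKM at rest and 47.5 and 58.9 after activation. Sec61a1 had 34.9 and 43.1 and then 150 and 244 FPKM, with its nearest peak 36916 bp away. Atf4 had 147 and 130.0 and then 314 and 378 FPKM. Other members of the same pathway, such as Pdia4 (5010 bp; 105 and 106 FPKM at rest, 287 and 351 after activation), rose with wide peaks.

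Genes of quiescence and homing, which fell, and early response genes also had wide peaks. Of 15 quiescence genes 10 lay at 3000 bp or more and 3 at 2000 to under 3000 bp, and all 14 tested were lower, with a median log2 change of -1.31. S1pr1, the receptor that guides lymphocyte exit, had 2794 bp and fell from 126 and 130 to 9.99 and 9.14 FPKM (log2 change -3.61, SE 0.161, adjusted p = 4.02e-05). Klf2, a factor that holds lymphocytes at rest, had 4263 bp and fell from 164 and 196 to 25.5 and 21.0 FPKM (log2 change -2.90, SE 0.202, adjusted p = 0.000109). Foxp1, a forkhead repressor of B cells, had no peak, with 61.2 and 60.3 FPKM at rest and 33.7 and 38.6 after activation. Il7r, the interleukin 7 receptor of early B cells and T cells, had no peak and at most 1.79 FPKM. Of 16 early response genes 9 lay in the widest class. Of the 14 tested 2 were higher and 3 lower, beside 28.2% and 26.2% of all genes tested. Egr3 had 6540 bp beside 35.0 and 30.2 FPKM at rest and 4.50 and 1.85 after activation. Nr4a1, an orphan nuclear receptor induced by antigen, had 778 bp and fell from 23.0 and 15.7 to 2.46 and 1.52 FPKM (log2 change -2.76, SE 0.239, adjusted p = 0.000229). Nr4a2 had 1653 bp and at most 0.164 FPKM, and Nr4a3 had no peak and at most 0.599 FPKM.

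Genes of other tissues differed in how often they had a peak. None of the developmental, Hox, olfactory, vomeronasal or keratin genes listed had one of 3000 bp or more. Of all rows under 0.1 FPKM in activated cells 13.1% had a peak, against 22.5% of the developmental regulators and 15% of the Hox genes. The olfactory, vomeronasal and keratin rows stood below that 13.1%. None of 40 developmental regulators was expressed; 31 had no peak, 6 had one of 500 to under 1000 bp and 3 one of 1000 to under 2000 bp. Those with a peak included the transcription factors Pax3, Lhx1, Lhx2, Dlx2, Nkx2-2 and Neurog2, and 2 of the 40 had H3K27ac. Lhx1, with a peak of 1501 bp, was listed at 0 in all 4 samples. Of 40 Hox genes 34 had no peak, and only Hoxb4, known from blood progenitors, was expressed, with 1.67 and 1.30 FPKM at rest, 1.52 and 1.15 after activation and a peak of 2478 bp. Of 1115 olfactory receptor rows 1113 had no peak, and none of 312 vomeronasal receptor rows had one. Of 104 keratin and keratin-associated rows 100 had none. Small RNA genes, which lie mostly inside or beside host genes and are poorly measured by RNA-seq of long RNA, had a peak in 89 of 601 microRNA rows (88 of them silent) and 56 of 100 small nucleolar RNA rows (33 of them silent). Of 61 histone rows 43 had a peak.

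Markers of other blood cells mostly lacked peaks. Of the 11 macrophage markers 9 had none; Cd68 (1975 bp) and Cd14 (1661 bp) had one. Cd68 stood at 24.5 and 23.7 FPKM at rest and 3.21 and 4.49 after activation. Of 10 T cell markers 8 had none, Cd4 had 801 bp and Cd3d 1029 bp, and the latter had a listed value of 0 in each activated sample. None of the 6 NK cell markers had one. Of 6 erythroid markers 4 had none, and Klf1 had one of 1312 bp. Ywhaz, a 14-3-3 protein, was the single gene of 13 housekeeping genes without a peak. It stood at 78.2 and 97.2 FPKM at rest and 70.8 and 95.1 after activation, with a peak 1718 bp away.

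Expressed genes without an H3K4me3 peak were few but included some of the most abundant RNAs. They numbered 941 (8.04% of the rows without a peak), of which 378 stood at 10 FPKM or more and 37 at 100 FPKM or more. Of the 941, 153 had names of predicted genes, small RNAs or receptor segments, 57 had loci under 1 kb and 21 lay on random contigs. A peak lay inside the locus in 193 (20.5%), and in 79 the nearest peak was 1-2 kb from an end. In 492 it was more than 10 kb away. Resting RNA was also at least 1 FPKM in 837 (88.9%).

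These genes mostly lacked the other marks too. Neither H3K27ac nor FAIRE lay within 1 kb of an end in 670 of 941 (71.2%), against 79 of 9301 (0.849%) expressed rows with a peak. At 10 FPKM or more the corresponding counts were 264 of 378 (69.8%) without a peak and 12 of 5267 (0.228%) with one. The share was nearly the same at high RNA, and its cause was not tested.

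The 10 highest named genes of this kind were mainly of translation and the ER. Eef2 (chr10:80639376-80645254) had 572 and 631 FPKM at rest and 1381 and 1263 after activation; its nearest H3K4me3 peak was 2942 bp away, while FAIRE and STARR peaks lay at an end. Hsp90b1 (chr10:86153586-86168189) had 120 and 121 FPKM at rest and 743 and 1059 after activation, with an H3K4me3 peak inside the locus, and the peak nearest to an end was 4492 bp away from it. Hspa5 (chr2:34627610-34632049) had 180.1 and 190 and then 761 and 858 FPKM, and no peak of any of the 4 lists at an end. For Eef2, Hsp90b1 and Hspa5 both activated samples lay above both resting samples. The genes were chosen for their activated level, so no test of the change is given.

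Others of the 10 had activated means between 364 and 638 FPKM. Rn45s, the precursor of ribosomal RNA, is made by RNA polymerase I and stood at 387 and 657 FPKM at rest and 871 and 404 after activation. Rpl41 and Rpl13a are ribosomal proteins with means of 556 and 469 FPKM. Hnrnpa2b1, an RNA-binding protein of splicing and transport, had 219 and 196 FPKM at rest and 329 and 403 after activation, and its nearest peak was 27140 bp away. Gnas, the stimulatory G protein subunit with several alternative promoters, had 206 and 218 and then 353 and 374 FPKM with a peak inside the locus. Among 85 cytosolic ribosomal protein genes 11 had no peak, and 9 of these 11 were expressed. The other 74 lay at 1000 bp or more, 41 of them at 2000 to under 3000 bp.

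**Figure D5:**
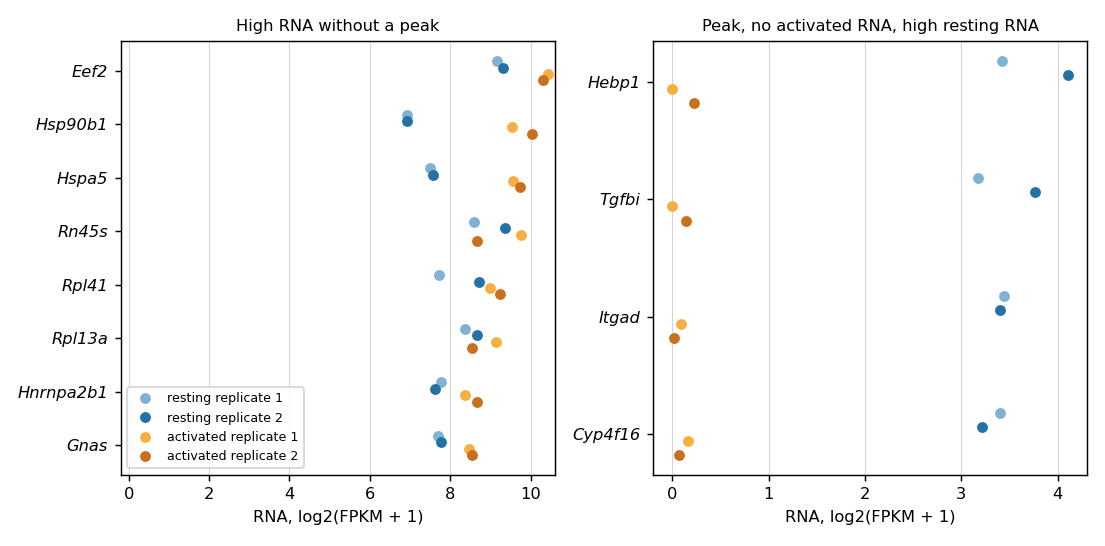
RNA level on the log2(FPKM + 1) scale in each of the 4 samples (points) for 2 groups of named genes. Left, 8 of the 10 named genes with the highest activated RNA and no H3K4me3 peak within 1 kb; right, 4 of the 5 named genes with a peak, under 0.1 FPKM in activated cells and the highest resting RNA. The resting points of the right panel lie between 8.03 and 16.2 FPKM, and all activated points lie under 0.2 FPKM.

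Peaks without RNA were mostly narrow. Of the rows with a peak 1474 were silent: 735 at 500 to under 1000 bp (46.8% of that class), 525 at 1000 to under 2000 bp (9.81%), 141 at 2000 to under 3000 bp (4.10%) and 73 at 3000 bp or more (4.17%). Of the 1474, 605 had a listed value of 0 in each activated sample, and 70 (4.75%) had at least 1 FPKM at rest.

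Wide peaks at silent genes usually belonged to an expressed neighbour as well. The widest peak lay within 1 kb of an end of an expressed row for 300 of the 1474 (20.4%). Of the 9301 expressed rows with a peak, 2199 (23.6%) shared it with another expressed row. By class the silent rows shared it in 2.72% at 500 to under 1000 bp, 24.8% at 1000 to under 2000 bp, 68.1% at 2000 to under 3000 bp and 74.0% at 3000 bp or more. Sharing was not counted by class for expressed rows, so whether silent rows of a class differ from them was not tested. Among the widest peaks named above, all at expressed genes, only that of Laptm5 was not shared with another expressed row. Most silent rows of the 2 wide classes had names of predicted genes, small RNAs or receptor segments. These were 76 of 141 at 2000 to under 3000 bp and 53 of 73 at 3000 bp or more. Loci under 1 kb numbered 48 and 36 in these classes. H3K27ac lay at an end of 89.0% of the silent rows that shared a peak and 18.7% of the 1174 that did not. Silent rows that did not share their peak numbered 45 at 2000 to under 3000 bp and 19 in the widest class. They made up 1.31% and 1.08% of all rows of these classes, rows with shared peaks included. Car11, a carbonic anhydrase-related protein, shared a peak of 5161 bp at its far end with the sphingosine kinase gene Sphk2. Car11 had a listed value of 0 in each activated sample. The far end of Alox12, an arachidonate lipoxygenase of platelets, lay 866 bp from a peak of 3808 bp shared with Rnasek, a ribonuclease gene. No peak lay at the start of Alox12. Alox12 had 1.44 and 2.47 FPKM at rest and 0 in both activated samples. In the widest class 45 rows had a listed value of 0 in each activated sample, and these 2 genes and the histone genes Hist1h2af and Hist2h2ab were among those tied at that value. Histone RNAs largely lack poly(A) tails and have near-identical copies, so their levels are uncertain.

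The widest peaks at silent genes with no expressed neighbour lay at several transcription factors and developmental genes. Aloxe3, a lipoxygenase of the skin barrier, and Hes7, a Notch target that drives the segmentation clock, shared a peak of 6318 bp (chr11:68933774-68940091), with H3K27ac, FAIRE and STARR peaks at an end of each. Aloxe3 had 0.120 and 0.148 FPKM at rest and 0.0333 and 0.0208 after activation. Zfp521, a zinc finger protein known from progenitors, had 3321 bp and at most 0.0491 FPKM, with none of the other marks. Dpf3 (chr12:84314738-84828686) had 3210 bp and at most 0.110 FPKM, with FAIRE and STARR but no H3K27ac. Dll4, a Notch ligand, had 2718 bp and at most 0.122 FPKM. Foxc1, a forkhead factor of mesoderm, had 2652 bp and at most 0.0307 FPKM. Etv1, an ETS factor, had 2615 bp and at most 0.178 FPKM. Gfra1, a receptor of GDNF, had 2776 bp, and Lemd1, a germ cell gene, had 3294 bp. The tenth was Hist1h2af. Of these 10 genes Aloxe3, Hes7, Lemd1 and Dll4 had H3K27ac at an end and the other 6 did not.

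Of the 70 silent rows with a peak and at least 1 FPKM at rest, 39 had a peak of 500 to under 1000 bp, 25 of 1000 to under 2000 bp, 2 of 2000 to under 3000 bp and 4 of 3000 bp or more. Hebp1 (chr6:135087537-135118233) had 9.72 and 16.2 FPKM at rest, 0 and 0.165 after activation, and a peak of 1135 bp at its start with H3K27ac. Tgfbi, a matrix protein made by macrophages, had 8.03 and 12.6 FPKM at rest, 0 and 0.0984 after activation, and 500 bp. Itgad, the integrin CD11d, had 9.87 and 9.59 FPKM at rest, 0.0624 and 0.0130 after activation, and a peak of 500 bp near the gene's end, shared with Cox6a2. Cyp4f16, a cytochrome P450, had 9.60 and 8.26 FPKM at rest and 0.119 and 0.0494 after activation. Its peak of 647 bp lay 395 bp from the far end of the gene, and no peak lay at the start. All 4 had low values in both activated and high values in both resting samples, for which they were chosen. Beside these stand the macrophage and erythroid sums given above, which were also higher at rest; their part in these values was not tested.

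Genes with RNA mainly in 1 of the groups differed by group in how often they had a peak in activated cells. Of 297 rows at 1 FPKM or more at rest and under 0.1 after activation, 70 (23.6%) had a peak. Of 68 rows with the opposite pattern 49 (72.1%) had one. Of 9716 rows at 1 FPKM or more in both groups 91.4% had a peak, and of 10038 rows under 0.1 in both 11.1% did. With larger differences, 25 of 76 rows (32.9%) at 10 FPKM or more at rest and under 1 after activation had a peak, against 54 of 60 (90%) with the opposite pattern. Rows with RNA mainly after activation thus mostly had a peak in activated cells, and rows with RNA mainly at rest mostly did not. The latter need not be genes that B cells lost. Macrophage and erythroid markers, of which 9 of 11 and 4 of 6 had no peak, also had higher summed RNA at rest. Their part in these rows was not tested. These sets were defined by RNA level, so the shares are a description.

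In the test over all genes, rows without a peak and rows of the narrowest class held more lower than higher calls. Of 1248 tested genes without a peak 20.8% were higher and 42.3% lower (median log2 change -0.35). At 500 to under 1000 bp 21.8% of 505 were higher and 40.2% lower (median -0.24). At 1000 to under 2000 bp 28.1% of 4372 were higher and 24.1% lower, at 2000 to under 3000 bp 32.2% of 3120 and 20.4%, and at 3000 bp or more 28.6% of 1618 and 26.1%. A gene had to reach 1 FPKM in 2 samples to be tested, and 304 of the 1248 without a peak were under 1 FPKM in both activated samples. Such genes could only be lower, so their calls support nothing. Among the 780 genes without a peak that had at least 1 FPKM in all 4 samples, 24.9% were higher and 25.3% lower (median -0.05), against 28.1% and 22.3% of 8695 with a peak (median 0.07). At 500 to under 1000 bp the same restriction left 315 genes, 67 (21.3%) higher and 85 (26.98%) lower. It removes genes that fell under 1 FPKM, so the shares after it do not measure how many calls were due to low genes. Without resting replicate 1 the genes without a peak called lower fell from 528 to 127 and without resting replicate 2 to 137, so this count rests on having both.

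Lower calls of at least 8-fold on the log2(FPKM + 1) scale made up 0.957% of all genes tested and higher calls 1.12%. Such lower calls numbered 59 without a peak (4.73% of those tested) and then 15 (2.97%), 15 (0.343%), 7 (0.224%) and 8 (0.494%) in the 4 classes of rising width. Such higher calls numbered 8 without a peak (0.641%) and then 0, 30 (0.686%), 45 (1.44%) and 39 (2.41%). No test was made of the difference between classes. The same rule on low genes bears on these counts, and the macrophage and erythroid markers, of which 9 of 11 and 4 of 6 had no peak, moved in the direction of the lower calls; their part in the counts was not tested.

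The peaks away from gene ends were narrower. Of the 16861 peaks in the list (500 to 15066 bp, median 1380 bp), 10728 (63.6%) lay within 1 kb of an end of a row, with a median width of 1742 bp, and the others had a median of 661 bp. Of 1520 peaks of at least 3000 bp 1349 lay within reach of an end. Exactly 500 bp was the width of 2970 peaks.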

How the data were processed

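The FPKM values were made by the authors before deposit, per the submitters' processing notes with mm9. The deposited table names no unit, and FPKM was inferred because values are not whole and sample sums differ. The submitters' processing notes name Bowtie, Bowtie2, HOMER, bedtools, TopHat2, STAR and mm9, without versions or roles. Labels on growth and treatment describe an LPS culture for resting samples too, so groups follow titles and source names. Peak lists (H3K4me3, H3K27ac, FAIRE, STARR) hold positions only, and no read count of the deposited Hi-C table was used. Strand in RNA counting is not given in the sources used here.

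Rows were classed on mm9 with python 3.11.15 (pandas 2.3.3), starts printed 1-based. Genes reaching 1 FPKM in 2 or more samples entered limma 3.58.1 (R 4.3.3, trend and robust) on log2(FPKM + 1), called at adjusted p under 0.05, which understates changes of low genes, and the script was tested on simulated data. Absolute depth is unknown because the table holds no read totals. RefSeq windows, on GRCm38.p6, were matched by symbol.

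The members and all 21 gene lists were chosen with earlier results of these data known. Named were genes with unique symbols, leaving out predicted names, small RNAs and receptor segments: the 10 highest expressed without a peak (locus of at least 1 kb), the 10 widest silent peaks with no expressed neighbour, the 10 with the widest peaks, the 5 highest per width class, the 5 silent with most resting RNA, some of those tied at the lowest value in the widest class, and list members in the opposite class. Other list members were named as examples after their values were seen. Date-like symbols (27 rows) and repeated symbols (767 rows) stayed in counts. Values under other distances, thresholds and left-out samples are in the closing section. H3K4me1, nascent RNA and resting chromatin were not analysed here. Some genes that the naming rule selects are not reported here.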

Additional observations from a re-analysis of the deposited data

How the results depend on the processing

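Of 126 values under alternatives, 77 were rated as kept and 49 as moved. Expressed shares were rated by the spread between replicates, and counts as kept if within 1.5 times. The share of rows with a peak was rated by a binomial confidence interval, which treats rows as independent. The difference in the gap between groups was rated by its sign only. Rows with a peak (50.8%) came to 49.7% at 500 bp, 52.4% at 2 kb, 53.8% anywhere in the locus, 44.3% with peaks of at least 1000 bp, 56.8% for unique symbols with loci of 1 kb or more, 44.7% with no other row end within 1 kb and 53.6% at the start only. The expressed share with a peak (76.8% of the group mean), under the same settings in that order but without the neighbour rule, was 78.0%, 75.2%, 74.2%, 84.4%, 77.8% and 80.6%, and 80.8% and 59.3% at 0.5 and 5 FPKM. Without a peak (8.04%) it was 8.39%, 7.60%, 6.79%, 10.1%, 9.33%, 6.16% (with the neighbour rule) and 8.51%, and 10.0% and 4.64% at 0.5 and 5 FPKM. At 3000 bp or more (91.8%) it was 92.4% at 500 bp, 90.8% at 2 kb, 93.9% for unique symbols, 94.6% with the neighbour rule, 95.0% at the start, 93.6% and 82.2% at 0.5 and 5 FPKM and 91.3% to 91.8% leaving out 1 activated sample. Expressed rows without a peak (941) numbered 543 at 5 FPKM and 598 with the neighbour rule. Silent rows with a peak (1474) numbered 739 with peaks of at least 1000 bp, 807 at the start only and 605 if listed at 0 in both samples. Leaving out each RNA sample in turn, genes called ranged from 2964 to 5693 (5910 with all), higher calls from 1735 to 2859 (3066) and lower calls from 1191 to 2834 (2844); with a peak they were 1582 to 2651 higher and 1054 to 2308 lower, and without a peak 153 to 208 higher and 127 to 526 lower, with the lowest counts each time without a resting replicate, whose lone partner is then assumed to vary like the other group. The balance of calls turned: higher exceeded lower with all samples, but lower exceeded higher with quantile normalization (3003 higher, 3117 lower), median centring (2936, 3133), no filter (2865, 3027) and without activated replicate 2 (2266, 2400). Genes without a peak called lower numbered 874 with no filter on low values. The labels do not say whether the replicate numbers pair the samples, and the data do not settle it. Differences of replicate 1 minus 2 at rest and after activation had r = 0.124 over 10863 genes, and the replicate block called 6281 genes. The cause of these shifts was not tested; fewer samples or rows enter by construction where one is left out. Absolute depth is unknown, and 1 peak list gives no error for a class.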
